A study of Mus musculus with 2 samples.

Results

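Among 4313 cells kept from the mitral valve leaflets of WT and mgR mice, 103 were CD3-positive cells that held RNA of at least 2 of 6 genes linked to helper T cells, and they are called Icos Il18r1 T cells here after the genes that most of them carried. The cells were chosen by measured values. A member had at least 1 UMI over Cd3e, Cd3d and Cd3g, at least 2 of Cd40lg, Icos, Cd4, Il17re, Il18r1 and Bcl11b detected, fewer than 3 UMIs over Nkg7, Cd8a and Cd8b1, fewer than 2 over Cd163l1, Tcrg-V6, Trdv4 and Trdc, and fewer than 5 over the macrophage genes C1qa, C1qb and C1qc. A UMI is a molecular tag that counts 1 captured RNA molecule. The WT library gave 21 members of 875 kept cells and the mgR library gave 82 of 3438.

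T cells recognize antigen through a receptor built of alpha and beta chains or of gamma and delta chains, which signals through the CD3 proteins and the kinase Lck. Helper T cells classically carry the coreceptor CD4 and instruct other cells through CD40 ligand and cytokines. Innate-like T cells reside in tissues, respond to cytokines such as IL-18, IL-7 and IL-23 without waiting for a new antigen, and can make IL-17 or other effector cytokines; several such lineages depend on the transcription factor PLZF, encoded by Zbtb16.

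The mgR mice were homozygous for a hypomorphic allele of Fbn1, the gene of the microfibril protein fibrillin-1, and develop myxomatous mitral valve disease. Controls were Fbn1+/+ littermates, both on a C57BL/6J background, and mice of both genotypes were 12 weeks old. Leaflets were digested with collagenase A and elastase, viable cells were sorted, and 1 library per genotype was sequenced, so that genotype and library cannot be told apart and no p-value can be given. The labels tie no cell to an animal. All intervals are 95% intervals for counting error only.

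The WT library held 5381844 UMIs over 1104 barcodes and the mgR library held 28215539 over 3802, a ratio of 5.24. The members themselves were alike in depth, with a median of 4670 UMIs per cell in WT (range, 2590 to 12046) and 4957 in mgR (range, 1084 to 13200), and summed to 101654 and 444612 UMIs. The libraries shared 2 barcodes, none of them a member. The study's methods state that only male mice were used, yet cells with UMIs of Xist, the RNA of the inactive X chromosome, were present in both libraries. Of the members, 6 WT and 45 mgR cells had Xist without any Y-linked UMI, 13 and 21 had Y-linked UMIs without Xist, 0 and 2 had both, and 2 and 14 had neither. Results are therefore also given within the Xist-alone and the Y-alone cells.

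The helper label was only partly borne out. Cd4, the defining coreceptor, was detected in 1 of 21 WT members (4.76%, 95% CI, 0.120% to 23.8%) and in 7 of 82 mgR members (8.54%, 3.50% to 16.8%). That is no more than in macrophage-rich cells, of which 9.54% in WT and 8.74% in mgR held a Cd4 UMI at median depths of 5924 and 8345 UMIs, while in fibroblast-rich cells the shares were 0.309% and 0.118%. T cell identity was plain from genes the rule did not use. An alpha-beta constant gene (Trac, Trbc1 or Trbc2) was detected in 21 of 21 WT and 82 of 82 mgR members, against 0 of 241 and 5 of 1590 macrophage-rich cells.

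Icos Il18r1 T cells were a like share of all kept cells in both libraries and a larger share of T cells in mgR. They made up 2.40% of kept cells in WT (95% CI, 1.49% to 3.65%) and 2.39% in mgR (1.90% to 2.95%), a difference of -0.0149 percentage points (-1.35 to 1.06). CD3-positive cells as a whole were 10.7% of kept cells in WT and 4.80% in mgR. Of these, Icos Il18r1 T cells were 21 of 94 in WT (22.3%, 14.4% to 32.1%) and 82 of 165 in mgR (49.7%, 41.8% to 57.6%), a difference of 27.4 points (14.8 to 38.5). The gamma-delta T cells, defined by at least 2 UMIs of Cd163l1, Tcrg-V6, Trdv4 and Trdc, were 5.94% of kept cells in WT and 1.11% in mgR (difference, -4.84 points, -6.64 to -3.31). Cytotoxic T cells, defined by at least 3 UMIs of Nkg7, Cd8a and Cd8b1, were 1.60% and 0.785%. The shares of CD3-positive cells sum to a whole, so a smaller share of 1 group makes the others larger.

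**Figure D1:**
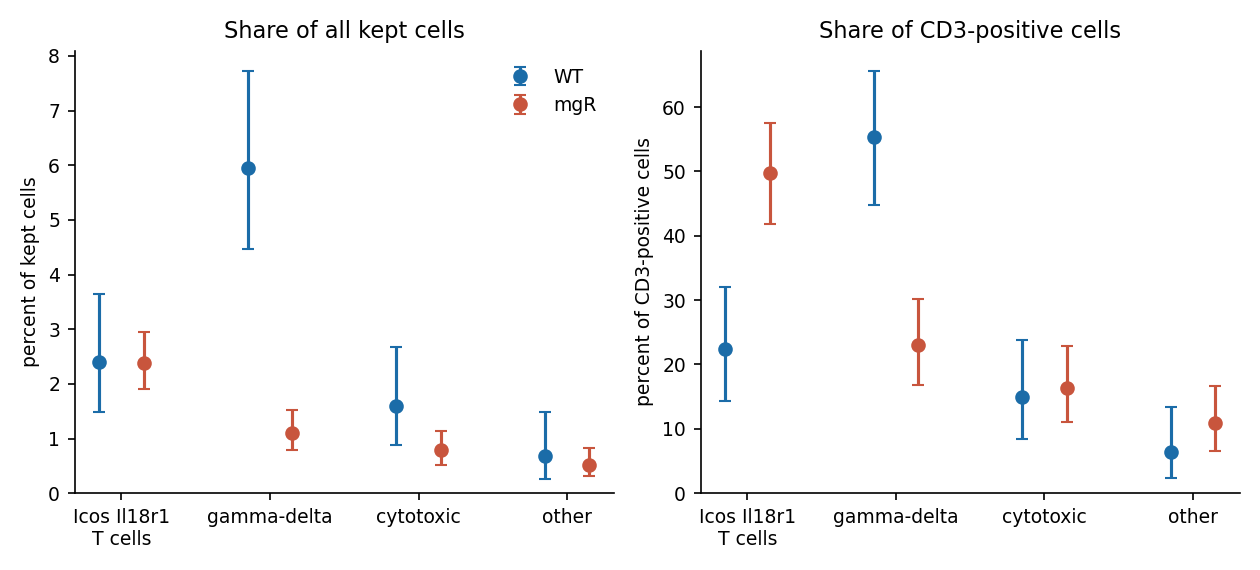
Share of each T cell group in the WT and mgR libraries, as percent of all kept cells (left) and of CD3-positive cells (right); points are shares and bars are exact binomial 95% intervals. Icos Il18r1 T cells are at 2.40% and 2.39% of kept cells but at 22.3% and 49.7% of CD3-positive cells, while gamma-delta T cells are at 5.94% and 1.11% of kept cells.

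Within the Xist-alone cells, Icos Il18r1 T cells were 2.44% of kept cells in WT and 2.15% in mgR, and 18.2% and 53.6% of CD3-positive cells. Within the Y-alone cells they were 3.86% and 2.90% of kept cells, and 36.1% and 43.8% of CD3-positive cells. The last difference was 7.64 points with an interval from -15.1 to 29.1, so that the larger share of CD3-positive cells in mgR was not detectable in the Y-alone cells. Gamma-delta T cells were lower in mgR in both, at 6.50% and 0.861% of Xist-alone cells and 5.64% and 1.80% of Y-alone cells. When every cell was thinned to 1000 UMIs before the rule was applied, 7 WT and 48 mgR cells remained, at 0.845% and 1.42% of kept cells and 8.33% and 34.8% of CD3-positive cells.

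The genes that chose the cells are given as a description. Icos, a costimulatory receptor of activated T cells, was detected in 20 of 21 WT and 76 of 82 mgR members at 1062 and 1048 CPM, the gene's UMIs scaled to a fixed total of UMIs in these cells. Il18r1, a chain of the IL-18 receptor, was detected in 18 and 68 cells at 443 and 409 CPM. Bcl11b, a transcription factor that maintains T cell identity, was found in 15 and 54 cells at 344 and 292 CPM. Cd40lg, the ligand that licenses B cells and macrophages through CD40, was found in 9 and 34 cells at 128 CPM in both libraries. Il17re, a receptor chain for IL-17C, was found in 5 and 31 cells at 78.7 and 142 CPM. Icos with Il18r1 was the commonest pair, present together in 17 WT and 63 mgR cells, and Cd4 with Cd40lg was present together in 0 and 2.

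At the edge of the rule, 5 WT and 18 mgR members held exactly 2 of the 6 genes, 9 and 32 held 3, and 7 and 32 held 4 or more. Just outside were 3 WT and 7 mgR CD3-positive cells with 1 gene and 3 and 11 with none. Beyond the rule, the genes with the highest ratio of members to all other kept cells, given with no test, were Trac (83.1), Trgv2 (64.0), Skap1 (59.8), Tcrg-C2 (56.2), Ppp1r14c (55.5) and Trbc2 (52.6), followed by Lck, Tnfsf11, Ikzf3, Actn2, Kcnk1 and Lat at 40.1 to 51.6. The CD3 requirement was met with room to spare, since 21 of 21 WT and 80 of 82 mgR members held at least 3 CD3 UMIs.

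Both alpha-beta and gamma chain constant genes were expressed. Trac, the alpha chain constant gene, was detected in 16 of 21 WT and 44 of 82 mgR members at 393 and 223 CPM, against 5 of 52 and 2 of 38 gamma-delta cells at 33.2 and 31.3 CPM. Trbc2, a beta chain constant gene, was detected in 19 and 81 members at 1289 and 1111 CPM, and in 38 and 30 gamma-delta cells at 546 and 403 CPM. Gamma chain constant genes were present as well: at least 1 was detected in 16 of 21 WT and 49 of 82 mgR members, against 48 of 52 and 36 of 38 gamma-delta cells and 0 of 14 and 6 of 27 cytotoxic cells. Tcrg-C2 was at 246 CPM in WT members and 121 CPM in mgR members, and Tcrg-C1 at 157 and 130 CPM. The gamma constant genes are close copies of each other, as are Trbc1 and Trbc2, so reads may be split between them by the counting. Delta chain RNA was nearly absent, with 0 and 1 UMIs of Trdc, but that gene was part of the rule.

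Variable segments of the alpha and beta chains were too thinly captured to name a receptor. Of 175 segments counted, a set that left out the gamma segment Trgv2, 20 had any UMI in the members, with at most 6 UMIs in a library. Trgv2 itself was well captured, with 28 UMIs in WT members and 46 in mgR members. It was detected in 47.6% of WT and 32.9% of mgR members. Trav1, used by mucosal-associated invariant T cells, had 1 UMI, and Trav11, used by invariant natural killer T cells, had 0. Per the labels, the libraries were made with a 3′ kit. An invariant receptor was not detectable at this depth.

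Of the signaling genes, Lck and Cd247 set the members apart from gamma-delta T cells. Lck, the kinase that starts alpha-beta receptor signaling, was detected in 8 of 21 WT and 44 of 82 mgR members at 128 and 146 CPM. It was at 0 UMIs in all 90 gamma-delta cells, which allows up to 3.33% of cells with a UMI and does not limit the share that express it, and the members' level was at least 22.2-fold higher. In cytotoxic cells Lck was at 227 and 145 CPM. Cd247, the zeta chain of the receptor complex, showed the opposite pattern: 1 of 21 and 11 of 82 members held it, at 9.84 and 40.5 CPM, against 37 of 52 and 24 of 38 gamma-delta cells at 375 and 200 CPM. Over both libraries the members' Cd247 level was 0.125 times that in gamma-delta cells (0.0727 to 0.203) and 0.259 times that in cytotoxic cells (0.140 to 0.466). Lat, the adaptor of T cell activation, was at 374 and 452 CPM in members and 508 and 356 CPM in gamma-delta cells.

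**Figure D2:**
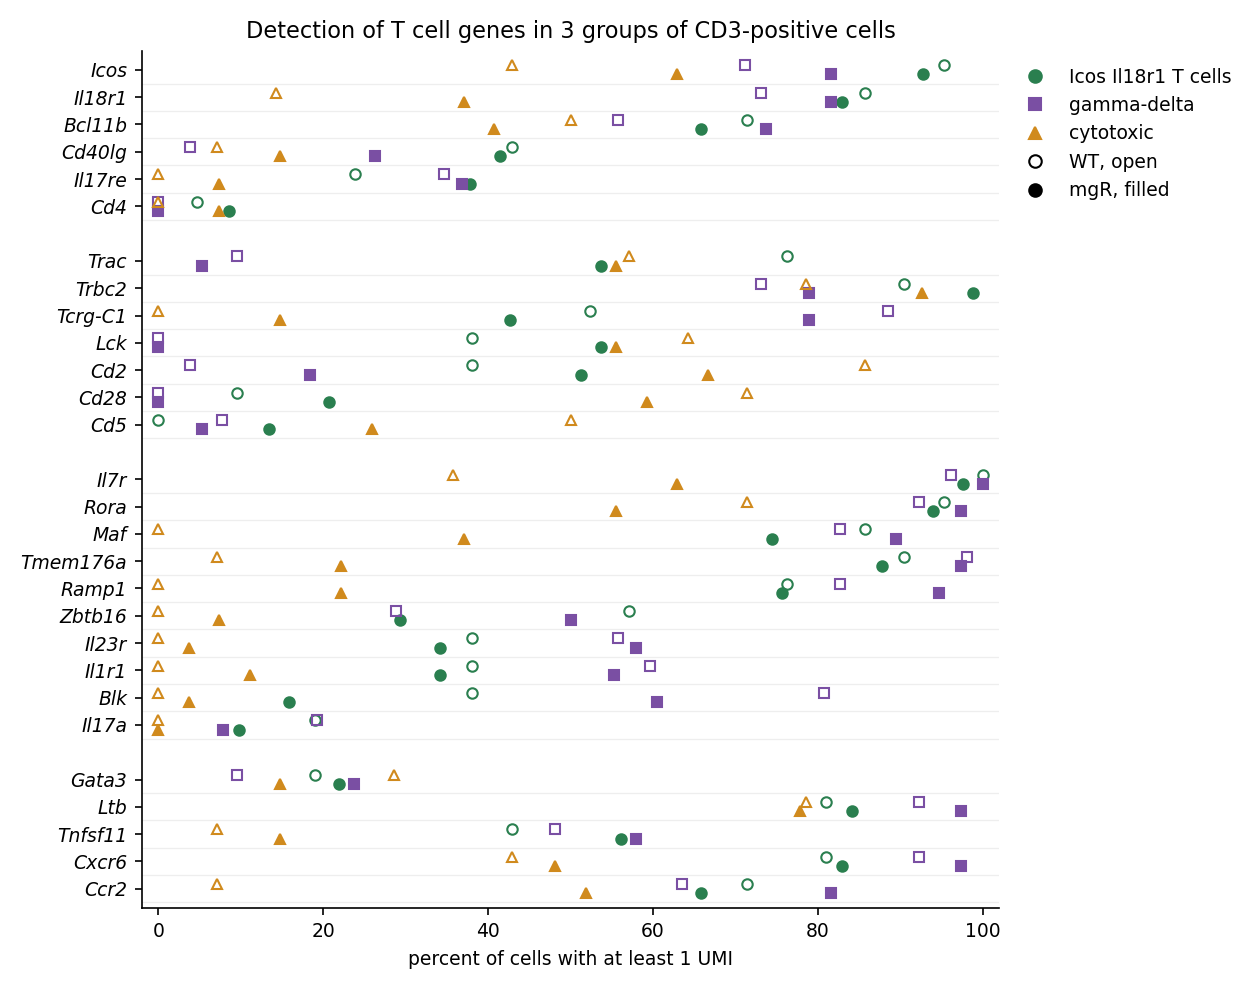
Percent of cells with at least 1 UMI of each gene in Icos Il18r1 T cells (circles), gamma-delta T cells (squares) and cytotoxic T cells (triangles); open symbols are WT and filled symbols mgR. The top block holds the genes that chose the members. Lck and Cd28 are at 0 in gamma-delta cells, and Tmem176a, Ramp1 and Maf lie high in members and gamma-delta cells and lower in cytotoxic cells.

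For the comparison of members with gamma-delta T cells, UMIs were summed over cells and a gene was called when the ratio of levels was at least 2-fold with an interval excluding 1. Of 7498 genes with at least 10 UMIs, 199 were called higher in members (2.65%) and 357 lower (4.76%). In the list of 18 genes of the receptor complex and its proximal signaling, 10 were higher and 2 lower, with a median log2 ratio of 1.197 beside -0.10 over all genes counted. The 10 were Trac, Trbc2, Lck, Cd2, Cd5, Cd6, Cd28, Skap1, Fyb and Cd4, the last of them a gene of the rule, and the 2 were Cd247 and Zap70. Cd2, an adhesion receptor, was at 118 CPM in WT members and 207 CPM in mgR members against 14.2 and 47.0 CPM in gamma-delta cells. Fyb, an adaptor that links the receptor to integrins, was at 138 and 175 CPM against 9.49 and 27.4 CPM. Skap1, its partner, was at 413 and 463 CPM against 171 and 243 CPM.

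Of the genes of at least 100 CPM that met the naming rule, the highest ratio to gamma-delta cells after Lck was that of Ms4a4b, with 76 UMIs in members and 6 in gamma-delta cells (10.8-fold, 4.74 to 30.4), Fyb (8.72-fold, 4.40 to 19.7) and Trac (7.91-fold, 4.63 to 14.5). Palld, an actin-binding protein, was 7.37-fold higher (4.23 to 13.9), Cd2 was 5.92-fold, Gna15, a G protein subunit, was 5.87-fold, and Lgals3, encoding galectin-3, was 5.84-fold (3.64 to 9.87). Crybg1, Ms4a6b and Nt5e, the ecto-enzyme CD73, followed at 5.59-, 5.18- and 4.34-fold. Cxcl2, a neutrophil chemokine, was 4.27-fold higher, with 40 of its 65 member UMIs in WT cells. Its ratio was 20.7 in WT and 1.60 in mgR, where the interval of 0.720 to 3.88 included 1.

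Among the lowest ratios were Auts2, with 0 UMIs in members and 49 in gamma-delta cells (a level of at most 0.0522 times), Clnk, an adaptor of immunoreceptors, at 0.111 (0.0425 to 0.244), and Blk, a kinase of the Src family, at 0.154 (0.0997 to 0.229). Tcrg-C1 was at 0.187 (0.144 to 0.242). Pdcd1, the inhibitory receptor PD-1, was at 0.193 (0.148 to 0.247), with 334 and 96.7 CPM in WT and mgR members and 959 and 544 CPM in gamma-delta cells. Mgp and Bgn, matrix genes of valve fibroblasts, were lower in members too, at 0.0451 and 0.160. Of the 549 Mgp UMIs in gamma-delta cells 541 were in the mgR library, and the part of fibroblast RNA in these 2 ratios was not tested.

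The type 17 list holds genes of IL-17-producing T cells. In members it was shared with gamma-delta cells and set them apart from cytotoxic cells. Against gamma-delta cells, 1 of 17 genes counted was higher (5830411N06Rik, also called Scart2) and 4 were lower, Il23r, Il1r1 and Blk among them, and the list had a median log2 ratio of -0.31. Against cytotoxic cells, 13 of 15 were higher and 0 lower, with a median of 2.66 beside 0.07 over all genes. In that comparison 461 of 6719 genes were called higher (6.86%) and 361 lower (5.37%).

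The genes that members and gamma-delta cells shared were found in most members. Tmem176a, an ion channel gene typical of type 17 lymphocytes, was detected in 19 of 21 WT and 72 of 82 mgR members at 1131 and 1282 CPM, beside 1215 and 1363 CPM in gamma-delta cells and 26.7 and 339 CPM in cytotoxic cells. Rora, a nuclear receptor of type 17 and innate lymphocytes, was detected in 20 and 77 members at 757 and 789 CPM. Maf, a factor of IL-17-committed T cells, was detected in 18 and 61 members at 748 and 434 CPM and was at 0 UMIs in the 14 WT cytotoxic cells. Ramp1, a subunit of the receptor for the neuropeptide CGRP, was detected in 16 and 62 members at 453 and 484 CPM, close to the 603 and 583 CPM of gamma-delta cells. Macrophage-rich cells also held Tmem176a and Maf, in 75.1% and 56.0% of WT cells.

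The genes that define IL-17 commitment itself were less widespread. Il23r, the receptor that sustains type 17 cells, was detected in 8 of 21 WT and 28 of 82 mgR members, and its level over both libraries was 0.492 times that in gamma-delta cells (0.339 to 0.707) and 11.7 times that in cytotoxic cells (3.07 to 99.3). Il1r1, the IL-1 receptor, was also detected in 8 and 28 members, at 0.489 times the gamma-delta level (0.349 to 0.679). Il17a was detected in 4 and 8 members at 118 and 56.2 CPM, beside 90.2 and 54.8 CPM in gamma-delta cells and 0 UMIs in the 41 cytotoxic cells. Il17f was found in 2 and 3 members. Only 1 WT and 1 mgR member held Il17a and Il23r together. Zbtb16, the gene of PLZF, was detected in 12 of 21 and 24 of 82 members at 148 and 78.7 CPM. Hlf, a transcription factor gene of the type 2 list, was detected in 6 and 27 at 78.7 and 96.7 CPM.

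Other helper programs appeared in few cells. Gata3, the regulator of type 2 cells, was detected in 4 WT and 18 mgR members at 138 and 78.7 CPM. Calca, of the same list, was detected in 4 and 16. Il5, the eosinophil growth factor, was concentrated in single cells: 28 UMIs in 1 WT cell and 5 UMIs in 1 mgR cell, both of which also held Gata3 and Il1rl1, the IL-33 receptor. All 5 Il1rl1 UMIs in WT and 11 of 14 in mgR came from 1 cell each. Il13 was at 0 UMIs. Csf2, encoding GM-CSF, was at 24 UMIs in a single mgR cell. Of type 1 genes, Ifng was found in 1 mgR member (2 UMIs) and in 3 of 14 WT and 4 of 27 mgR cytotoxic cells, and Tbx21 in 1 and 3 members. Foxp3, the regulatory T cell factor, was at 0 UMIs in all 103 members. Ctla4 was nevertheless detected in 3 and 9 members and in none of 90 gamma-delta cells. The granule genes Gzma and Gzmb and the natural killer receptor Ncr1 were at 0.

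Receptors for survival and tissue position were widespread. Il7r, the IL-7 receptor, was detected in 21 of 21 WT and 80 of 82 mgR members at 2204 and 1759 CPM, against 253 and 743 CPM in cytotoxic cells. Cxcr6, a tissue-retention chemokine receptor, was detected in 17 and 68 members at 571 and 522 CPM, beside 1006 and 721 CPM in gamma-delta cells. Ccr2, which guides cells to inflamed tissue, was detected in 15 and 54 members at 453 and 313 CPM. Il2ra, the high-affinity IL-2 receptor chain, was detected in 13 and 38 members at 216 and 137 CPM. Ltb, the membrane partner of lymphotoxin, was at 453 and 580 CPM, beside 1419 and 838 CPM in gamma-delta cells. Tnfsf11, encoding RANKL, was detected in 9 and 46 members at 177 and 234 CPM, close to the 214 and 215 CPM of gamma-delta cells. Of 15 costimulatory and inhibitory receptors counted against gamma-delta cells, 8 were higher (Cd28, Icos, Ctla4, Cd27, Tnfrsf4, Tnfrsf18, Cd5 and Cd6) and 1 lower (Pdcd1), where Icos was part of the rule. Over all genes counted, 2.65% were higher and 4.76% lower. Cd28, Cd5, Cd6 and Tnfrsf4 were confined to a minority, since 76 of the 103 members held no UMI of any of them. Itgae, the integrin chain of intraepithelial T cells, was found in 2 members of each library.

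Against cytotoxic T cells, among genes of at least 100 CPM that met the naming rule, the highest ratios belonged to Tcrg-C2 (12.6-fold, 4.15 to 62.2), Igf1r, a growth factor receptor (9.27-fold, 4.38 to 23.5), Ppp1r14c (8.83-fold), Mpp7 (8.52-fold) and Ltb4r1, the leukotriene B4 receptor (8.43-fold, 3.75 to 23.5). Klf4 and Atf3, transcription factors induced by stress, were 7.605- and 7.40-fold higher, and Serpinb1a, a protease inhibitor, was 7.44-fold (4.16 to 14.7). Tcrg-C1, Ifngr2, Trgv2 and Il1r1 completed the named genes, at 7.04- to 8.83-fold. The lowest ratios were for Ccl5 (1 UMI in members and 1368 in cytotoxic cells), Ly6c2, Gzmb, Gzma and Xcl1, all at 0 in members, and Klrd1 and Cd7, with 4 and 1 UMIs in members. Mgp was at 0.0242, with 569 of the 571 cytotoxic UMIs in the mgR library. In the receptor list, 0 of 18 genes were higher in members than in cytotoxic cells and 4 were lower (Cd247, Cd6, Cd28 and Fyb).

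The members were not alike among themselves. Cd4, Cd5, Cd6 and Cd28 are surface genes of conventional alpha-beta T cells, and 12 members held at least 2 of them (1 WT, 11 mgR), 15 held exactly 1 (2 WT, 13 mgR) and 76 held none (18 WT, 58 mgR). This division was made after the values were seen, and it is given as a description with no test. In the 76 cells without these genes, Tmem176a was detected in 74, Ramp1 in 68, Zbtb16 in 35 and Il23r and Il1r1 in 34 each. In the 12 cells with 2 or more, Tmem176a was detected in 5, Ramp1 in 1 and Zbtb16, Il23r, Il1r1, Il17a, Blk and Tcrg-C2 in 0.

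The 12 cells carried other genes instead. Tnfrsf4, the costimulatory receptor OX40, was detected in 7 of 12 and 0 of 76, and Lef1, a factor of naive T cells, in 3 of 12 and 0 of 76. S1pr1, the receptor for exit from tissue, was found in 8 of 12 and 17 of 76, and the interferon-inducible Ifi27l2a in 10 of 12 and 15 of 76. Icos was detected in 12 of 12 and 73 of 76, and Trac in 10 of 12 and 40 of 76, and both genes were found in both kinds of cell. Cd40lg, the gene most tied to help, was at 130 CPM in both. Icos, Cd40lg and Cd4 were genes of the rule, and a cell without Cd4 needed at least 2 of the other rule genes. The values of Icos and Cd40lg in both kinds of cell were therefore partly set by the selection. Median depths were 4640 and 4919 UMIs in WT and 5042 and 4880 UMIs in mgR for the cells with 2 or more and with none.

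**Figure D3:**
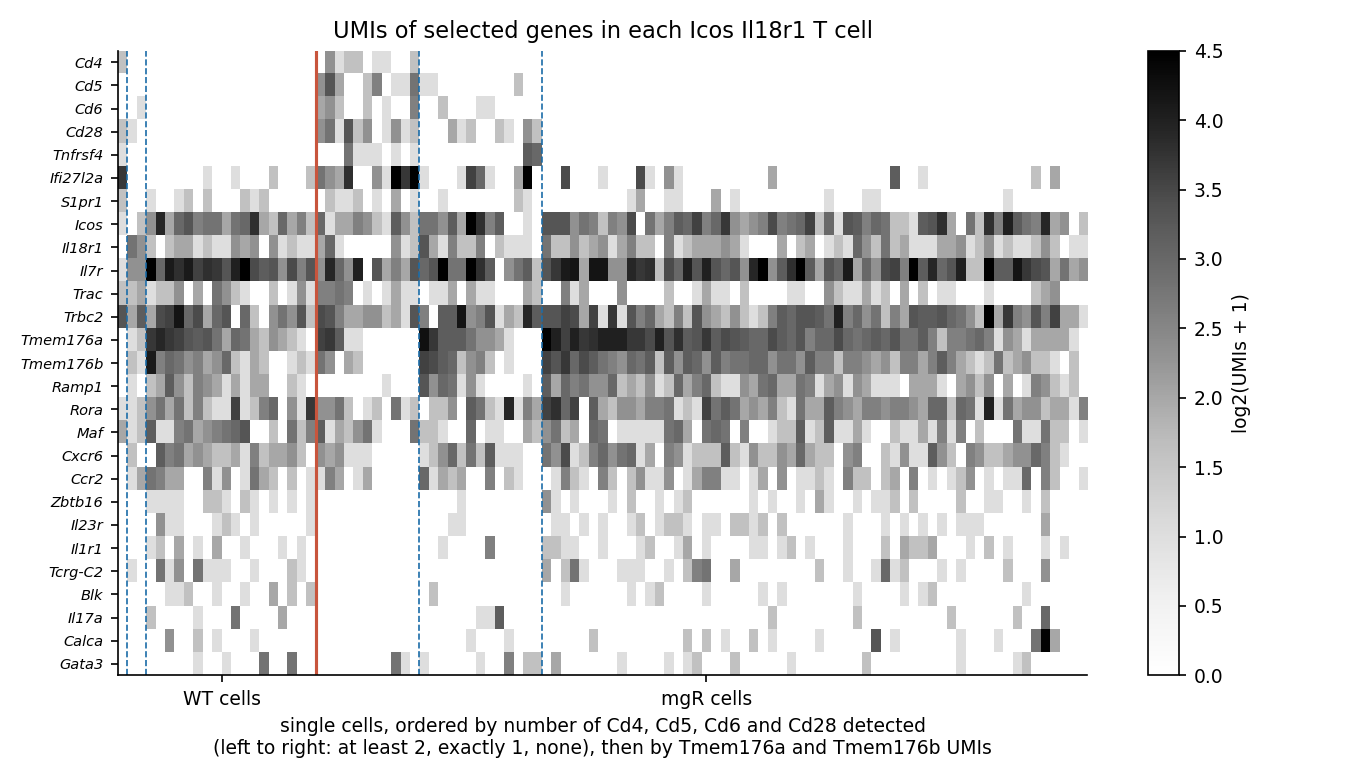
UMIs per gene (rows) in each of the 103 members (columns), as log2(UMIs + 1); the solid line divides 21 WT from 82 mgR cells, and dashed lines divide, from left to right in each library, cells with at least 2, exactly 1 and none of Cd4, Cd5, Cd6 and Cd28. Tmem176a, Tmem176b and Ramp1 fill most columns of the last block, and the 12 cells of the first blocks hold Ifi27l2a in 10 and Ramp1 in 1.

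Between genotypes, most of the members' genes were measured too shallowly in WT for a fine comparison. Of 5585 genes with at least 10 UMIs, 69 were called higher in mgR members (1.24%) and 240 lower (4.3%). The median log2 ratio over all of these was -0.14, and over the 757 genes with at least 100 UMIs it was 0.02. The mgR members had 4.37 times the UMIs of WT members, and a gene at 0 in WT needed 27 UMIs in mgR to be called. The part of depth in the lean to lower calls was not tested. With mgR UMIs thinned to the WT total, an alternative added after the data were seen, 78 genes were higher and 115 lower of 3042. Of the 6 rule genes, 0 were called.

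Genes were named between genotypes only with at least 100 CPM and 5 cells with a UMI in the higher library, the same direction in per-cell means, and no haemoglobin gene among them. The 3 highest ratios under this rule belonged to genes of dividing cells. The rule leaves out genes such as Igkc, with 153 of its 156 mgR UMIs in 1 cell. Pclaf, a partner of the replication clamp PCNA, had 0 UMIs in WT and 73 in 8 mgR cells (at least 5.56-fold). Hist1h1b, a linker histone, had 0 UMIs in WT and 58 in 5 mgR cells (at least 4.42-fold), 32 of them in 1 cell, without which it would not reach the 27 UMIs of a call. Stmn1, a microtubule regulator, had 8 UMIs in 4 WT cells and 166 in 18 mgR cells (4.74-fold, 2.35 to 11.2). Mitotic cells were found in both libraries at shares with overlapping intervals: at least 3 of 9 mitotic genes were detected in 2 of 21 WT members (9.52%, 1.17% to 30.4%) and 7 of 82 mgR members (8.54%, 3.50% to 16.8%). Within the 16 cell cycle genes counted, 1 was higher (Stmn1) and 1 lower (Cenpf, 10 and 9 UMIs). Over all other kept cells Pclaf, Hist1h1b and Stmn1 were 2.14-, 2.47- and 1.79-fold higher in mgR, and Cenpf, lower in members, was 3.47-fold higher. Within gamma-delta cells Stmn1 was 7.84-fold, Hist1h1b 20.2-fold and Pclaf at least 8.80-fold higher in mgR, whereas within cytotoxic cells they were at 1.24, 0.672 and 0.772 and were not called.

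Cd28, the costimulatory receptor, was called higher in mgR members (3 UMIs in 2 WT cells and 49 in 17 mgR cells, 3.73-fold, 1.21 to 18.7), beside 0.807 in cytotoxic cells (0.467 to 1.43, not called) and 0 UMIs in gamma-delta cells of both libraries. Over all other kept cells, a mixture in which T cells were a smaller share in mgR, it was at 0.555. Cd5, a negative regulator of receptor signaling, was at 0 UMIs in WT and 35 in 11 mgR members (at least 2.67-fold), and its log2 ratio was -0.46 when cells were thinned to 1000 UMIs. Both genes were among those used above to divide the members. Use1, Eid1, Vasp, Anp32e, Dnajc2, Pkn2, Gpatch8 and Plp2 were 2.93- to 3.66-fold higher, each resting on 3 to 7 WT UMIs. Their functions range from vesicle fusion (Use1) to actin assembly (Vasp), and their ratios in all other kept cells were 0.930 to 1.34. Gpatch8 was called lower in gamma-delta cells (0.437), and Use1 and Plp2 were called higher in cytotoxic cells, each on 1 WT UMI.

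**Figure D4:**
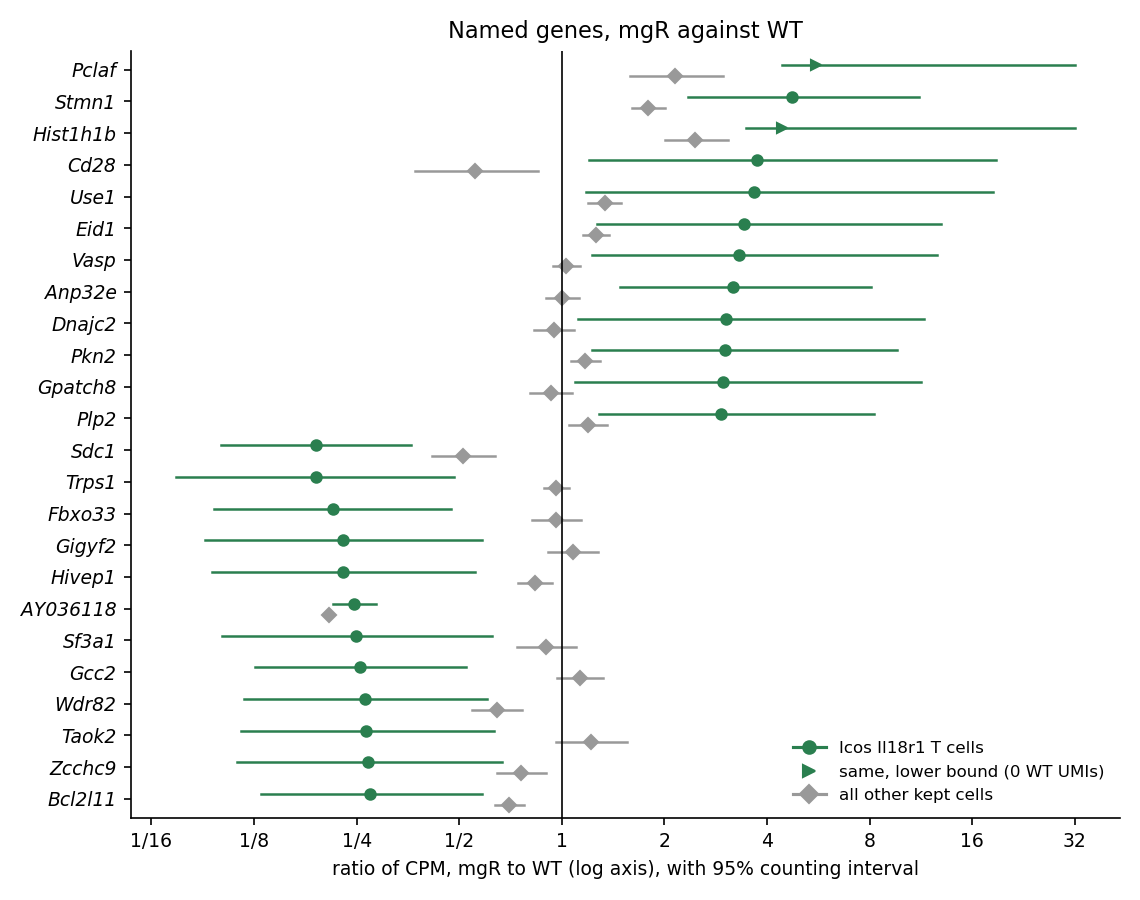
Ratio of CPM in mgR to WT (log axis) for the 12 highest and 12 lowest named genes in Icos Il18r1 T cells (green, above) and in all other kept cells of the same libraries (grey, below); lines are 95% counting intervals, cut at 1/16 and 32, and triangles are lower bounds where WT had 0 UMIs. AY036118 is lower in both, at 0.246 and 0.207, and Cd28 is at 3.73 and 0.555, the latter over a mixture of cell types whose T cell share differs between libraries.

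Among the 12 lowest ratios under the same rule, which leaves out genes such as Il5 and Cd74 with nearly all WT UMIs in 1 cell, Sdc1, the heparan sulfate proteoglycan syndecan-1, had 24 UMIs in 9 of 21 WT cells and 20 in 14 of 82 mgR cells (0.191, 0.0998 to 0.360). It was lower within the Xist-alone cells (0.113) and the Y-alone cells (0.244), and at 0.512 in all other kept cells. AY036118, a long noncoding RNA gene on chromosome 17 (39847113 to 39848035, minus strand, mm10), had 364 and 391 UMIs in the 2 libraries (0.246, 0.212 to 0.284) and was at 0.207 (0.202 to 0.212) in all other kept cells, and was called in both. Trps1, Fbxo33, Gigyf2, Hivep1, Sf3a1, Gcc2, Wdr82, Taok2, Zcchc9 and Bcl2l11 were at 0.191 to 0.274, each with 11 to 17 UMIs in WT. Outside the members these 10 genes were at 0.645 to 1.22. Gcc2 was called lower in gamma-delta cells as well (0.454) and higher in macrophage-rich cells (2.01). Bcl2l11 was called lower in gamma-delta (0.236) and cytotoxic cells (0.457), and Sf3a1 in cytotoxic cells, on 6 WT and 1 mgR UMIs.

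Ribosomal protein genes took 22.9% of member UMIs in WT and 28.1% in mgR, and 7 of 89 were called higher and 1 lower, with a median log2 ratio of 0.26. Rps6, the ribosomal protein whose phosphorylation reads out mTOR activity, was called higher at 974 and 1950 CPM (2.002-fold, 1.62 to 2.49), and was 1.37-fold higher in all other kept cells. In gamma-delta cells Rps6 was 1.85-fold higher (1.56 to 2.20) and in cytotoxic cells 1.47-fold (1.18 to 1.83), both below the 2-fold limit of a call. Its RNA level is a different quantity from its phosphorylation. The mTOR lists otherwise showed little. Of 19 mTORC1-responsive genes counted, 0 were called higher and 1 lower, with a median log2 ratio of -0.06. Of 16 pathway components, 1 was higher (Rps6) and 1 lower (Ddit4, an mTORC1 inhibitor, 177 and 69.7 CPM, 0.394, 0.213 to 0.748), with 8 of its 18 WT UMIs in 1 cell and a log2 ratio of 0.92 when cells were thinned to 1000 UMIs. Ddit4 is on both lists. Of 10 TGF-beta response genes 0 were called in either direction, with a median of -0.42, and of 11 adhesion and integrin genes 0 were called, with a median of -0.17; Itgb1, the beta 1 integrin chain, was at 197 and 178 CPM.

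Of 11 interferon-response genes counted, 2 were called higher in mgR members (Bst2 and Ifi27l2a) and 0 lower, with a median log2 ratio of 0.68. Over all genes counted, 1.24% were higher and 4.3% lower, with a median of -0.14. Bst2, the antiviral protein tetherin, was at 78.7 CPM in WT members and 209 CPM in mgR members (2.66-fold, 1.29 to 6.34), and Ifi27l2a was at 177 and 508 CPM (2.87-fold, 1.78 to 4.93), with 12 of its 18 WT UMIs and 71 of its 226 mgR UMIs in 1 cell each. Both genes were higher in all other kept cells too, by 1.501- and 1.59-fold. Bst2 was called higher in gamma-delta (2.33-fold) and cytotoxic cells (2.96-fold), and Ifi27l2a in gamma-delta cells, on 2 WT UMIs, but not in cytotoxic cells (1.05-fold). Ifi27l2a was detected in 84.6% of WT and 96.3% of mgR macrophage-rich cells, at 1991 and 2616 CPM, and the part of free macrophage RNA in the members' counts was not tested.

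The effector programs of the members are given beside all genes counted between genotypes. Of those, 1.24% were called higher and 4.3% lower in mgR members, with a median log2 ratio of -0.14. In the type 17 list 0 of 15 genes were higher and 2 lower, with a median log2 ratio of -0.54. The 2 were Blk, at 128 and 36.0 CPM (0.281, 0.127 to 0.636), and Aqp3, a water and glycerol channel, at 207 and 69.7 CPM (0.338, 0.188 to 0.618). Within gamma-delta cells Blk was at 0.530 and not called, and Aqp3 was called lower at 0.342. In the type 2 list 2 of 6 genes were lower (Il5 and Areg), and all 14 Areg UMIs and all 28 Il5 UMIs in WT came from 1 cell each. In the lists of 5 type 1 genes, 6 regulatory T cell genes, 18 cytokine receptors and 8 chemokine and S1P receptors, 0 were called. Tcrg-C2 was called lower (0.494, 0.302 to 0.828), with opposite directions in Xist-alone cells (0.162) and Y-alone cells (1.77). Pdcd1, on the follicular helper and the costimulatory list, was lower at 0.289 (0.180 to 0.468), beside 0.568 in gamma-delta and 0.617 in cytotoxic cells, neither of them called. Nr4a1, an immediate early gene of receptor stimulation, was called higher (2.61-fold, 1.05 to 8.33), and its relative Nr4a2 was called lower (0.370, 0.209 to 0.671). Within gamma-delta cells both were called higher, Nr4a1 at 3.23-fold (1.69 to 6.69) and Nr4a2 at 4.01-fold (1.75 to 10.7). In cytotoxic cells neither was called (0.888 and 0.649). Klf2, a factor of recirculating T cells, was called higher (2.19-fold, 1.01 to 5.65), with 33 of its 67 mgR UMIs in 1 cell. Klf2 was also called higher in gamma-delta cells (4.33-fold, 2.01 to 10.7) and was not called in cytotoxic cells (2.08-fold, 0.911 to 5.53). Lcp2, the adaptor SLP-76, was called lower (0.457, 0.253 to 0.855). Of 17 dissociation stress genes 0 were called, with a median of 0.21.

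RNA of other cell types was present at low levels in many members and at high levels in few. Macrophage markers gave a UMI in 11 WT and 65 mgR members. At least 10 UMIs of another cell type's markers were found in 1 of 21 WT and 4 of 82 mgR members. The WT cell held 430 of the 436 UMIs of the dendritic cell list. In mgR, 1 cell held 222 of 239 UMIs of the B cell list and 1 held 1996 of 2024 UMIs of the red cell list, which took haemoglobin from 0.0374% of member UMIs in WT to 0.455% in mgR. Of the macrophage list, 1 cell held 36 of 50 UMIs in WT and 1 held 25 of 184 in mgR, and Apoe, a lipoprotein gene of that list, was called higher in mgR members (5 and 67 UMIs). The list sums for macrophages were 492 and 414 CPM in members against 42409 and 48659 CPM in macrophage-rich cells, and for fibroblasts 59.0 and 225 CPM against 41232 and 45722 CPM in fibroblast-rich cells. Of the 16 macrophage markers 6 were at 0 in each library's members. Without these 5 cells, a setting added after the data were seen, 48 genes were higher and 215 lower in mgR members, and the Klf2 ratio turned below 1 (log2 ratio, -0.21). The shares of CD3-positive cells were then 21.5% and 48.4%.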

How the data were processed

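Droplet single-cell RNA-seq was performed by the authors on mitral valve leaflets, 1 library per genotype. The deposited matrices hold counts of UMIs per gene and barcode, made by the authors with Cell Ranger 7.1.0 against mm10 per the labels and file headers. As in the study's methods, cells with 200 to 5000 genes and at most 10% mitochondrial UMIs were kept. Scrublet (in scanpy 1.11.5) marked 1 member, which stayed in. The members and gene lists were chosen with earlier results of these data known. UMIs were summed over members per library and expressed as CPM. Ratios carry exact conditional binomial intervals, shares Clopper-Pearson intervals, and genes with at least 10 UMIs were called at 2-fold with an interval excluding 1. A group under 3 UMIs was set to 3 for bounds, and log2 ratios used a prior of 0.5 UMIs. Python 3.11.15, scipy 1.17.1 and numpy 2.4.6 were used. Named genes are the 12 highest and 12 lowest called ratios between genotypes with at least 100 CPM in the higher library and 5 cells with a UMI there, the same direction in per-cell means and at least 50% of the level of its other cells, and the 12 highest and 8 lowest against each other T cell group in the same direction in both libraries. Mitochondrial, ribosomal, haemoglobin, predicted, sex-linked and rule genes were left out of the naming, and genes of the lists could be named too. The ratio procedure was tested on simulated data. No sequence bears on these results, and none is printed. Values of some list genes are not reported here.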

Additional observations from a re-analysis of the deposited data

Results flagged for a closer look

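Bcl2l11, which encodes the apoptosis activator BIM, had a ratio of mgR to WT of 1.38 in members with Xist UMIs alone (0.201 to 59.4) and of 0.124 in members with Y-linked UMIs alone, so the 2 sets of cells pointed in opposite directions. Blk, a kinase gene of the type 17 list, was likewise at 1.26 and 0.195, and Tcrg-C2, a gamma chain constant gene, was at 0.162 and 1.77. None of these 3 differences between the sets was tested, and the first interval for Bcl2l11 spans both directions.

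Of the barcodes left out by the filters on cells, 1 of 364 in mgR (0.275%) and 0 of 229 in WT met the membership rule, which for WT allows a share of up to 1.31%. The mgR barcode exceeded the mitochondrial limit.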

How the results depend on the processing

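No paired analysis was possible because each genotype had 1 library, and leaving out a replicate was not possible for the same reason. Of the summary results recomputed under alternatives, 95 stayed within the interval of the main result, or near its value for counts, and 22 moved outside. Staying within an interval did not require the same direction: thinned to 1000 UMIs, the share of kept cells was larger in mgR. With cells thinned to 1000 UMIs before the rule, 12 genes were higher and 15 lower in mgR members (69 and 240 without thinning), and 1 and 0 list genes (16 and 16). In Xist-alone members, 44 and 113 genes and 9 and 9 list genes were called, and in Y-alone members 129 genes were lower. At 30 UMIs 98 genes were lower, and with mgR UMIs thinned to the WT total 115. List genes called higher numbered 6 with no C1q UMI and 7 without cells holding UMIs of another cell type. The difference in the share of CD3-positive cells was 7.64 points in Y-alone cells, and that of Ptprc-positive cells was -1.50 points. Against gamma-delta cells, 122 genes were lower in WT alone, and 103 were higher and 169 lower at 30 UMIs. Against cytotoxic cells, 137 were lower in WT alone, 285 higher in mgR alone and 171 lower at 30 UMIs. The difference in cells with type 17 genes was -4.88 points when 2 genes were required. Fewer cells or genes entered most of these settings.

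Some log2 ratios changed sign. Thinned to 1000 UMIs, these were Anp32e (-0.71), Cd5 (-0.46), Ddit4 (0.92), Gpatch8 (-2.78), Klf2 (-2.04), Lcp2 (0.39) and Trps1 (0.030). Areg was at 1.55 with at least 3 of the 6 genes, 1.77 with no C1q UMI and 0.69 in Y-alone cells. Cenpf was at 0.91 in Xist-alone cells, and Klf2 at -0.21 without cells holding UMIs of another cell type. The cause was not tested. Settings that removed these cells or thinned mgR to the WT total were chosen after seeing the data.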
